A study of Mus musculus with 6 samples.

Results

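Integrins and laminins form the main attachment between heart cells and the protein sheet around them. The 41 genes described here are picked out by a rule on gene names that uses no measured value: every gene with a probe set annotated to a single symbol that began with Itga or Itgb, or with Lama, Lamb or Lamc and a digit, or that was Nid1 or Nid2. They came from 88 probe sets and were 41 of 18193 genes measured. They were compared between whole ventricles of 3 OE mice, genotype Myh6-MCM; CAG-S-COUP-TFII, and 3 CTRL mice, genotype Myh6-MCM, on 6 Affymetrix mouse genome arrays. OE mice overexpress COUP-TFII, an orphan nuclear receptor encoded by Nr2f2, from an allele that stays silent until Cre removes a stop signal.

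Myh6-MCM is a tamoxifen-inducible Cre driven by the cardiomyocyte promoter Myh6, and both groups carried it. Both groups were of 129SvEv/C57Bl6/J mixed strain and were dosed with tamoxifen at 40 mg per kg daily on 3 consecutive days from 2 months of age. Ventricles were taken 16 days after the first dose, at a labelled age of 2.5 months, although the methods give 2 months. The methods describe the study's animals as male unless stated otherwise. The transgene was therefore switched on in cardiomyocytes, whereas the RNA came from every cell type of the ventricle, and a smaller number of cells of one type cannot be told apart from less RNA per cell in any result below. The 3 mice of a group were labelled as separate replicates.

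The deposited values were log2 values centred on the median of the 6 arrays for each probe set, so 0 is the middle of the 6 arrays and the values carry no level of expression. Neither the labelled tissue nor the presence of any subunit could therefore be checked from its level, and levels of different genes are not compared. The root mean square distance between arrays over all genes was 0.375 to 0.427 between groups, against at most 0.233 within a group. Of 6 probe sets for Nr2f2, 1 was higher in OE by 3.49 on the log2 scale (limma, adjusted p = 2.57e-05), with CTRL values of −1.99, −1.60 and −1.65 and OE values of 1.72, 1.60 and 1.91. The other 5 probe sets of Nr2f2 gave log2 changes from −0.34 to −0.13, and no call was made for them. Which part of the transcript each probe set covers was not analysed here.

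Integrins are receptors made of an alpha and a beta chain that span the cell membrane, hold matrix proteins outside and couple to the actin cytoskeleton through talin and kindlin inside. Laminins are trimers of an alpha, a beta and a gamma chain that polymerise into the first layer of a basement membrane, and nidogens link that layer to the collagen IV network. Cardiomyocytes rest on laminins and hold them mainly through integrins with the beta1 chain and through the dystroglycan complex. These attachments sit at costameres, where the sarcomere meets the membrane, and are known to carry force and to signal stretch.

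The promoter sequences of 5 members with a call in OE are shown first, because COUP-TFII is known to bind repeats of the half-site AGGTCA and the letters upstream of these genes can be read for it. Itgbl1 and Itgb5 had the largest rises among members, Lama5 and Lamb3 the largest falls, and Itgb2l was the member with a half-site. Each run holds the 250 bases before a start of the gene in RefSeq, read 5′ to 3′ on the strand of the gene in build GRCm38.p6. Lamb3 has a further start, and its window, chr1:193301993-193302242, is not printed. Capitals mark the half-site AGGTCA and the GC box GGGCGG, on either strand.
Itgbl1, chr14:123659890-123660139, plus strand: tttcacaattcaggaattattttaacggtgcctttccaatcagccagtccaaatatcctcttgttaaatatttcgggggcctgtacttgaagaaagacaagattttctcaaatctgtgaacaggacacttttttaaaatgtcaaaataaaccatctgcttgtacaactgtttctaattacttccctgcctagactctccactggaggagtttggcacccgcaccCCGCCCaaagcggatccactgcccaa
Itgb5, chr16:33829415-33829664, plus strand: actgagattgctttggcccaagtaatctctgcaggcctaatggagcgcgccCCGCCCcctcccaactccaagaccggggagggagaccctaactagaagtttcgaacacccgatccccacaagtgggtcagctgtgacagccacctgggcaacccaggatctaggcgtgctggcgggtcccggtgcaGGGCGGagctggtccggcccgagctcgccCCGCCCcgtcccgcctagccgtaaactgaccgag
Lama5, chr2:180225860-180226109, minus strand: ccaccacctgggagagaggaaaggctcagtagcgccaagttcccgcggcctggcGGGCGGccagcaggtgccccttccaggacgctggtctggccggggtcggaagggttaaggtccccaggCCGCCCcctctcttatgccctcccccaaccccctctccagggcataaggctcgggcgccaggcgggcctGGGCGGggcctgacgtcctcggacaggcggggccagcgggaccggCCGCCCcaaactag
Lamb3, chr1:193301744-193301993, plus strand: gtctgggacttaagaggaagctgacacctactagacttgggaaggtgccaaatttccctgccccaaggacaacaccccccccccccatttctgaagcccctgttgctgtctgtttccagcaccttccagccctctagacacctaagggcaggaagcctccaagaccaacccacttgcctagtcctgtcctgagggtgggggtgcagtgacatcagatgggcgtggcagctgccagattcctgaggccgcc
Itgb2l, chr16:96443615-96443864, minus strand: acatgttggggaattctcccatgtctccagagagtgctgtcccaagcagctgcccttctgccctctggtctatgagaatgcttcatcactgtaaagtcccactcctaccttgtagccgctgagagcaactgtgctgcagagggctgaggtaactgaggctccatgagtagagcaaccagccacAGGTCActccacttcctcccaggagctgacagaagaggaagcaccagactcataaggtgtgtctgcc

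RefSeq windows were at hand for 27 of the 41 members, 30 windows in all, and for 8 of the 12 members with a call. The half-site AGGTCA lay in 1 of the 30 windows, that of Itgb2l, where it began 67 bases before the start, and in 14% of 32851 windows of the same length over all genes. The direct repeat AGGTCANAGGTCA, which contains the half-site, lay in 0 of the 30 and in 0.0335% of all windows. The GC box lay in 11 of the 30 windows, or 36.7%, and in 32.7% of all windows. Among the 5 printed, Lama5 held 4 GC boxes, Itgb5 held 3 and Itgbl1 held 1, while Lamb3 and Itgb2l held none in these letters. A match is a description of the letters and no evidence of binding, and binding sites further away were not searched.

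The group as a whole did not move in a single direction. By limma, with Benjamini-Hochberg adjustment over all 18193 genes and a threshold of 0.05, 6 members were higher in OE and 6 were lower. These 12 made up 29.3% of the members, near the 26.7% of all genes that were called, of which 14.9% were called higher and 11.8% lower. In all 12 called members, and in 6 that were not called, the 3 OE arrays lay on the same side of the 3 CTRL arrays, which held for 45.6% of all genes. In 9 of these members OE lay above CTRL, as in 22% of all genes, and in 9 below, as in 23.6%. The median log2 change was −0.05 over members and −0.03 over all genes.

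Receptor chains were called in both directions, whereas each call among matrix chains was lower. Of 25 integrin chains, 3 were called higher and 2 lower, with a median log2 change of 0.06. Of 12 laminins and nidogens, 4 were called lower and 0 higher by limma, and 0 were higher also at an unadjusted p under 0.05 and by one-way analysis of variance, with a median of −0.16. The 4 remaining members are proteins that carry an integrin name but are no receptor chain, and 3 of them were called higher. Whether integrins and laminins differed from each other was not tested.

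**Figure D1:**
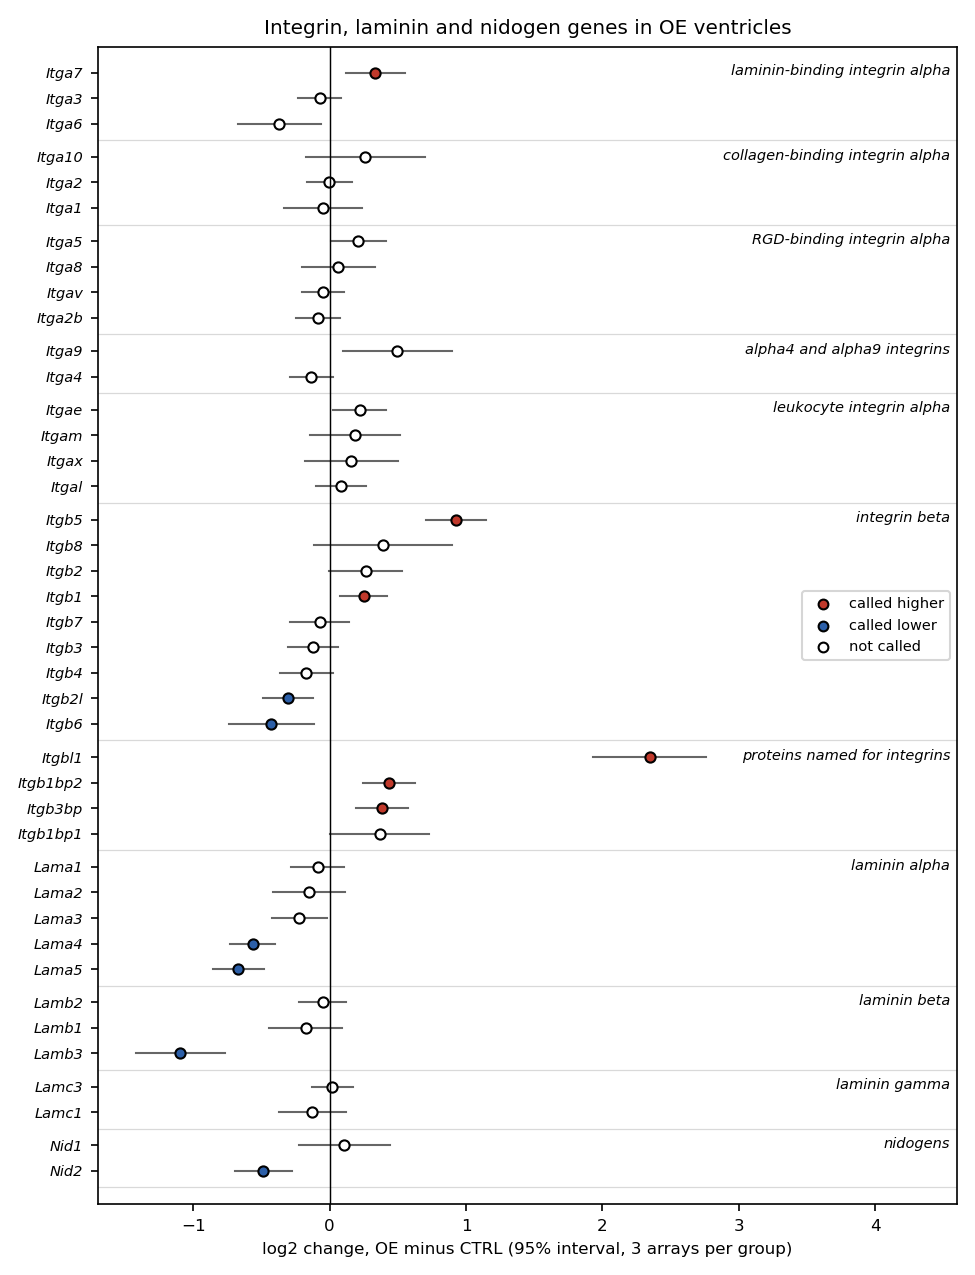
The log2 change, OE minus CTRL, of each of the 41 members on the horizontal axis, ordered by role, with lines for the 95% interval of limma from 3 arrays per group. Red points were called higher, blue lower and open points were not called. The 6 points called higher are integrin chains or proteins named for integrins and reach 2.35 at Itgbl1, and 4 of the 6 called lower are laminins or Nid2, down to −1.10 at Lamb3.

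These splits depended on how the arrays were set to a common level. Each array was also centred on its ribosomal protein genes, 42 of which were measured. Under the deposited scaling 15 of these were called higher and 1 lower, with a median log2 change of 0.20. Which scaling lies nearer the true levels was not tested. Centring on these genes lowers OE relative to CTRL for every gene, and the median change over all genes shifted to −0.22. Then 3 members were called higher, Itgbl1, Itgb5 and Itgb1bp2, and 20 lower, beside 7.87% and 46% of all genes. Of the integrin chains 1 was then higher and 10 lower, and of the laminins and nidogens 0 were higher and 10 lower. No member with a call changed sign under that centring, and values below are those of the deposited scaling unless stated.

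Integrin alpha7 pairs with beta1 and is the chief laminin receptor of striated muscle. Itga7 values were −0.19, −0.22 and −0.04 in CTRL and 0.19, 0.32 and 0.04 in OE. The groups did not overlap, though CTRL 3 and OE 3 lay close together. Itga7 was higher in OE by 0.34 on the log2 scale (SE 0.09, 1.26-fold, limma adjusted p = 0.0318), which was the only call among the 16 alpha chains. The call was lost without CTRL 1, CTRL 2, OE 1 or OE 2, with adjusted p up to 0.0926, and the change was 0.14 (adjusted p = 0.249) after ribosomal centring.

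Integrin beta1, the partner of most alpha chains in the heart, was measured by 6 probe sets. The means over them were −0.03, −0.20 and −0.20 in CTRL and 0.12, 0.12 and 0.08 in OE. The OE arrays all lay above CTRL, and the rise was small: 0.25 on the log2 scale (SE 0.07, 1.19-fold, limma adjusted p = 0.0408). Its probe sets did not move alike, since 3 were called higher with changes of 0.29, 0.51 and 0.63, and the other 3 gave −0.11, −0.03 and 0.20. Without probe sets ending in _x_at, _s_at or _a_at, the change of Itgb1 was 0.12 (adjusted p = 0.276). The call was lost on leaving out any array but CTRL 1, with adjusted p from 0.0763 to 0.112, and the change was 0.06 (adjusted p = 0.533) after ribosomal centring.

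The other alpha chains that bind laminin are alpha3 and alpha6, and neither was called. Itga6 values were 0.22, 0.05 and 0.37 in CTRL and −0.0087, −0.03 and −0.43 in OE. All OE values lay below CTRL, with a log2 change of −0.37 (95% interval −0.68 to −0.06, limma adjusted p = 0.0754), and the change was −0.56 (adjusted p = 0.013) after ribosomal centring. Itga3 values were 0.10, −0.04 and 0.08 in CTRL and −0.06, −0.04 and 0.02 in OE. The groups overlapped, and the interval of the change ran from −0.23 to 0.09. Itgb4, which pairs with alpha6 in hemidesmosomes of epithelia, gave a log2 change of −0.17 (adjusted p = 0.168).

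The largest change among receptor chains was that of integrin beta5, which pairs with alphav and binds vitronectin and other proteins with an RGD motif. Itgb5 values were −0.60, −0.43 and −0.34 in CTRL and 0.60, 0.36 and 0.46 in OE. The groups were clearly apart, with the lowest OE array well above the highest CTRL array. Itgb5 was higher in OE by 0.93 on the log2 scale (SE 0.10, 95% interval 0.71 to 1.15, 1.90-fold, limma adjusted p = 0.000777). All 4 of its probe sets were called higher, by 0.72 to 1.14, and its call was kept under all 13 alternatives of test, scaling, probe sets and arrays, with an adjusted p of at most 0.0222.

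The alphav chain itself was not called. Itgav values were 0.03, −0.0016 and 0.0061 in CTRL and −0.12, −0.03 and 0.03 in OE. The groups overlapped, and the 95% interval of the change was −0.21 to 0.11. Its 5 probe sets disagreed, with 1 called higher by 0.38 (adjusted p = 0.0123) and the others between −0.35 and 0.01.

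Alphav also pairs with beta3, beta6 and beta8. Beta6 is known from epithelia, where it activates latent TGF-beta. Itgb6 values were 0.36, 0.10 and 0.02 in CTRL and −0.38, −0.002 and −0.41 in OE, so the highest OE array lay just under the lowest CTRL array. Itgb6 was lower in OE with a log2 change of −0.43 (SE 0.13, 1.34-fold, limma adjusted p = 0.0495), at the edge of the threshold. The call was lost without CTRL 1, CTRL 2, OE 1 or OE 3, with adjusted p from 0.0891 to 0.146. Itgb3 gave −0.12 (adjusted p = 0.275), and its 2 probe sets went opposite ways, −0.42 (adjusted p = 0.0191) and 0.18. Itgb8 gave 0.39 (adjusted p = 0.218), with CTRL and OE arrays overlapping.

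Of the alpha chains that bind RGD motifs, Itga5, the fibronectin receptor chain, came nearest to a call. Its values were −0.13, 0.01 and −0.05 in CTRL and −0.0057, 0.23 and 0.24 in OE. OE 1 lay inside the CTRL range and the other OE arrays above it, with a log2 change of 0.21 (95% interval 0.0072 to 0.41, limma adjusted p = 0.114). Itga8, expressed by smooth muscle and mesenchymal cells, gave 0.06, and Itga2b, the platelet chain, −0.09, with adjusted p of 0.709 and 0.394. The 8 platelet markers gave 0 calls higher and 1 lower.

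None of the 3 collagen-binding chains was called by limma, at an unadjusted p under 0.05 or by one-way analysis of variance. Itga1 and Itga2 gave log2 changes of −0.05 and −0.0024. Itga10 gave 0.26 (adjusted p = 0.333), a mean set by OE 3 at 0.72, since the other 5 arrays lay between −0.11 and 0.01. The related chains alpha4 and alpha9 bind fibronectin, VCAM-1 or tenascin, and their values went opposite ways without overlap between groups. Itga9 values were −0.40, 0.06 and −0.22 in CTRL and 0.08, 0.67 and 0.19 in OE, a change of 0.49 (95% interval 0.10 to 0.89, limma adjusted p = 0.0688), and Itga4 changed by −0.13 (adjusted p = 0.177).

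The integrins of leukocytes were not called either. For the 4 alpha chains Itgae, Itgal, Itgam and Itgax, 0 passed by limma, 1 had an unadjusted p under 0.05, 0 passed by one-way analysis of variance, and log2 changes ran from 0.08 to 0.22. Only that of Itgae was still above 0 after ribosomal centring. Itgb2, the partner of the Itgal, Itgam and Itgax chains, was at 0.26 before that centring and 0.07 after it. Itgb2 values were −0.40, −0.37 and 0.02 in CTRL and −0.02, 0.02 and 0.03 in OE. CTRL 3 lay with the OE arrays, and the limma adjusted p of the change was 0.13 with all arrays. Without CTRL 3 the change was 0.40 (adjusted p = 0.0108). Beside this, 10 of 18 macrophage markers were called higher and 0 lower. They numbered 3 and 0 by one-way analysis of variance and 7 and 2 after ribosomal centring. Their mean ran from −0.43 to −0.16 in CTRL and from 0.12 to 0.35 in OE. The part of macrophages in these values was not tested. Itgb7, a lymphocyte chain and the partner of the Itgae chain, gave −0.07. Of 14 lymphocyte markers, 1 was called, Cxcr6, higher by 4.22 (limma adjusted p = 0.000509), and 9 had changes below 0.

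Itgb2l, a relative of Itgb2 with no well-known role in the heart, went the other way. Its values were 0.16, 0.12 and 0.26 in CTRL and −0.13, −0.02 and −0.23 in OE. The groups did not overlap, and Itgb2l was lower in OE with a log2 change of −0.30 (SE 0.08, 1.24-fold, limma adjusted p = 0.0266). The call was lost without CTRL 1, CTRL 3, OE 1 or OE 3, with adjusted p from 0.0613 to 0.0768. Of its 3 probe sets 1 was called lower. Of 9 neutrophil markers, 2 were called lower, or 22.2%, and 0 higher, beside 11.8% of all genes lower and 14.9% higher. By one-way analysis of variance 1 of these markers was lower. Their mean overlapped between groups, from −0.15 to 0.16 in CTRL and from −0.10 to 0.325 in OE.

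**Figure D2:**
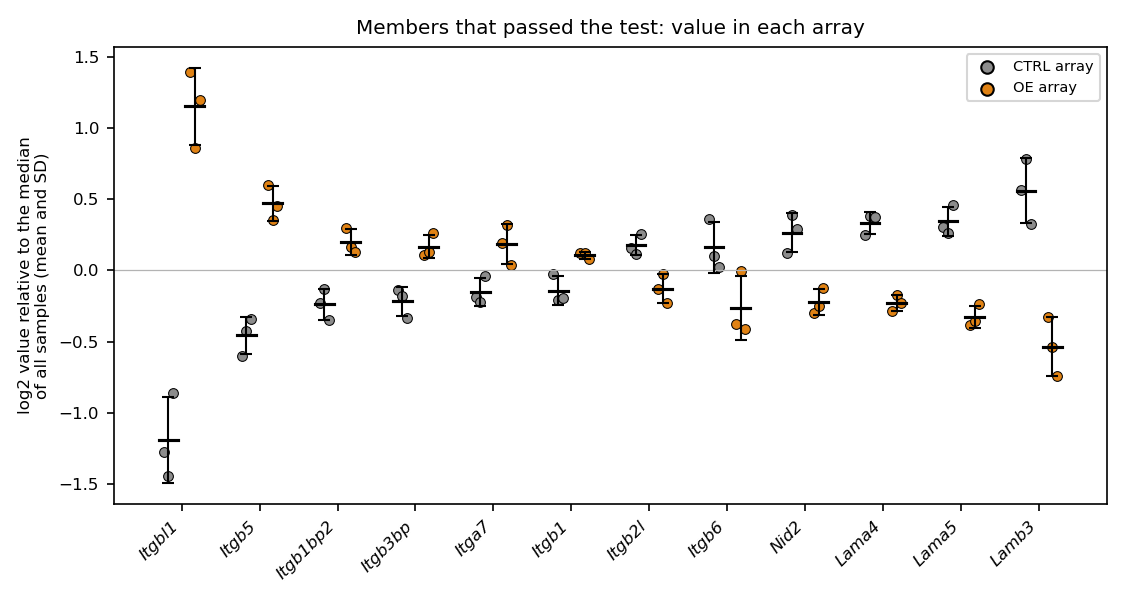
Values of the 12 called members in each array, as log2 relative to the median of the 6 arrays, with CTRL arrays in grey and OE arrays in orange and bars for the mean and SD of 3 arrays. In all 12 the groups are apart, by the widest margin in Itgbl1 and the narrowest in Itgb6.

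The largest rise of all members was in a gene that encodes no receptor chain. Itgbl1 encodes a secreted protein with repeats like those in the stalk of integrin beta chains. Its values were −1.28, −1.44 and −0.86 in CTRL and 1.40, 0.86 and 1.199 in OE. The 3 OE arrays lay far above every CTRL array, and Itgbl1 was higher by 2.35 on the log2 scale (SE 0.18, 95% interval 1.93 to 2.76, 5.08-fold, limma adjusted p = 0.000272). Its call was kept under all 13 alternatives, with a change of 2.15 to 2.51. Of 14 fibroblast markers, 7 were called higher and 2 lower, and 4 and 2 by one-way analysis of variance, with a mean of −0.60 to −0.22 in CTRL and 0.21 to 0.39 in OE. The part of fibroblasts in the rise of Itgbl1 was not tested.

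Itgb1bp2 encodes melusin, a muscle protein that binds the tail of integrin beta1 and is known for its role in the response to pressure load. Its values were −0.23, −0.13 and −0.35 in CTRL and 0.30, 0.16 and 0.13 in OE. The groups were apart, with a rise of 0.43 on the log2 scale (SE 0.08, 1.35-fold, limma adjusted p = 0.00863) that was kept under all 13 alternatives. Cardiomyocyte markers moved the other way, with 2 of 18 called higher and 11 lower, 0 and 9 by one-way analysis of variance, and a mean of 0.17 to 0.25 in CTRL and −0.27 to −0.22 in OE.

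Itgb3bp encodes a centromere protein that was first named for binding the integrin beta3 tail. Its values were −0.14, −0.18 and −0.33 in CTRL and 0.11, 0.13 and 0.26 in OE. It was higher by 0.38 on the log2 scale (SE 0.08, 1.30-fold, limma adjusted p = 0.0123), but 1 of its 5 probe sets rose by 1.26 and another by 0.39, while the other 3 gave −0.02 to 0.15. Without probe sets whose names mark them as shared between transcripts, the change was 0.16 (adjusted p = 0.243). Itgb1bp1, or ICAP-1, a brake on beta1 integrin, was not called at 0.37 (adjusted p = 0.123). Its arrays did not overlap between groups, but CTRL 3 at −0.0006 and OE 3 at 0.0006 were all but equal, and without CTRL 3 the change was 0.50 (adjusted p = 0.0464).

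Laminin chains were lower or not called. Of 10 chains, 9 had a log2 change below 0, as had 10151 of all 18193 genes, 3 were called lower by limma, and the median was −0.16. The alpha chains decide which receptors a laminin trimer binds, and all 5 of them had changes below 0. The alpha4 and alpha5 chains, both made by endothelial cells of vessels, were called lower.

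Lama4 values were 0.25, 0.38 and 0.38 in CTRL and −0.29, −0.17 and −0.23 in OE. The groups were far apart, and Lama4 was lower by a log2 change of −0.56 (SE 0.07, 95% interval −0.73 to −0.40, 1.48-fold, limma adjusted p = 0.00157). Its 2 probe sets differed in size, at −0.93 (adjusted p = 0.000943) and −0.20 (adjusted p = 0.267). Lama5 values were 0.31, 0.26 and 0.46 in CTRL and −0.38, −0.35 and −0.24 in OE. It too showed a wide gap between the groups, with a log2 change of −0.67 (SE 0.08, 95% interval −0.86 to −0.48, 1.59-fold, limma adjusted p = 0.00126), and 2 of its 3 probe sets were called lower. Both calls were kept under all 13 alternatives.

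Beside these falls, 10 of 18 endothelial markers were called lower and 0 higher by limma, or 55.6% lower beside 11.8% of all genes. By one-way analysis of variance 2 of the markers were lower and 0 higher, and 0 were higher at an unadjusted p under 0.05. After ribosomal centring 15 were lower and 0 higher, beside 46% of all genes lower. The mean of these markers ran from 0.12 to 0.28 in CTRL and from −0.21 to −0.01 in OE. Among them Cdh5, the cadherin of endothelial junctions, was lower by a log2 change of −0.36 (adjusted p = 0.0191), a call lost without CTRL 2, CTRL 3 or OE 2 (adjusted p up to 0.0592). Pecam1, another junction protein, gave −0.07 (adjusted p = 0.602). Falls were not particular to endothelial markers, since 61.1% of cardiomyocyte and 58.3% of smooth muscle and pericyte markers were also called lower. The part of endothelial or other cells in the laminin values was not tested.

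Lama2 encodes the alpha chain of the laminin that surrounds muscle fibres, and its loss is known to cause muscular dystrophy. Lama2 values were −0.13, 0.12 and 0.21 in CTRL and −0.03, −0.26 and 0.03 in OE. The groups overlapped, and the change of −0.15 had a 95% interval of −0.42 to 0.11 (limma adjusted p = 0.353). Lama1, of the early embryo, gave −0.09 (adjusted p = 0.467). Lama3, of epithelia, gave −0.22 (adjusted p = 0.0961), and its OE arrays all lay below CTRL.

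The largest fall of all members was in the beta3 chain, which is known from the laminin that anchors skin and other epithelia. Lamb3 values were 0.57, 0.78 and 0.33 in CTRL and −0.33, −0.54 and −0.74 in OE. The groups did not overlap, and the log2 change was −1.10 (SE 0.14, 95% interval −1.42 to −0.77, 2.14-fold, limma adjusted p = 0.00164). The call was kept under all 12 alternatives that could be computed for its single probe set. The level of Lamb3 in the ventricle is unknown from these values.

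The beta and gamma chains that make up most laminin of the heart were not called. Lamb1 values were −0.14, 0.12 and 0.32 in CTRL and −0.03, −0.15 and −0.05 in OE, with an interval of the change of −0.44 to 0.09. Lamb2 values were 0.03, 0.001 and −0.001 in CTRL and 0.07, −0.14 and −0.05 in OE, with an interval of −0.23 to 0.12. Lamc1 values were −0.11, 0.29 and 0.09 in CTRL and −0.11, −0.0015 and 0.0015 in OE, with an interval of −0.37 to 0.12. In all 3 the groups overlapped, and the limma adjusted p values were 0.284, 0.643 and 0.398. Lamc3, a gamma chain of narrower distribution, gave a log2 change of 0.02 (adjusted p = 0.84). The integrin chains Itga11 and Itgad were not analysed here.

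Of the nidogens, Nid2 was called lower and Nid1 was not called. Nid2, which is known from vessel basement membranes among others, had values of 0.12, 0.39 and 0.29 in CTRL and −0.30, −0.25 and −0.12 in OE. All OE arrays lay below CTRL, with a log2 change of −0.49 (SE 0.09, 1.40-fold, limma adjusted p = 0.00748), and the call was kept under all 12 alternatives that could be computed. Nid1 values were −0.0026, 0.08 and −0.12 in CTRL and 0.43, −0.13 and −0.03 in OE. OE 1 alone stood above the other arrays, and the interval of the change ran from −0.23 to 0.44 (adjusted p = 0.614).

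Measured probe set by probe set, 16 of the 88 members' probe sets were called higher and 11 lower, together beside 24.4% of all 34945 probe sets. Of 23 members with more than 1 probe set, 8 had probe sets with changes of both signs, and in 0 of them were probe sets called in both directions.

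**Figure D3:**
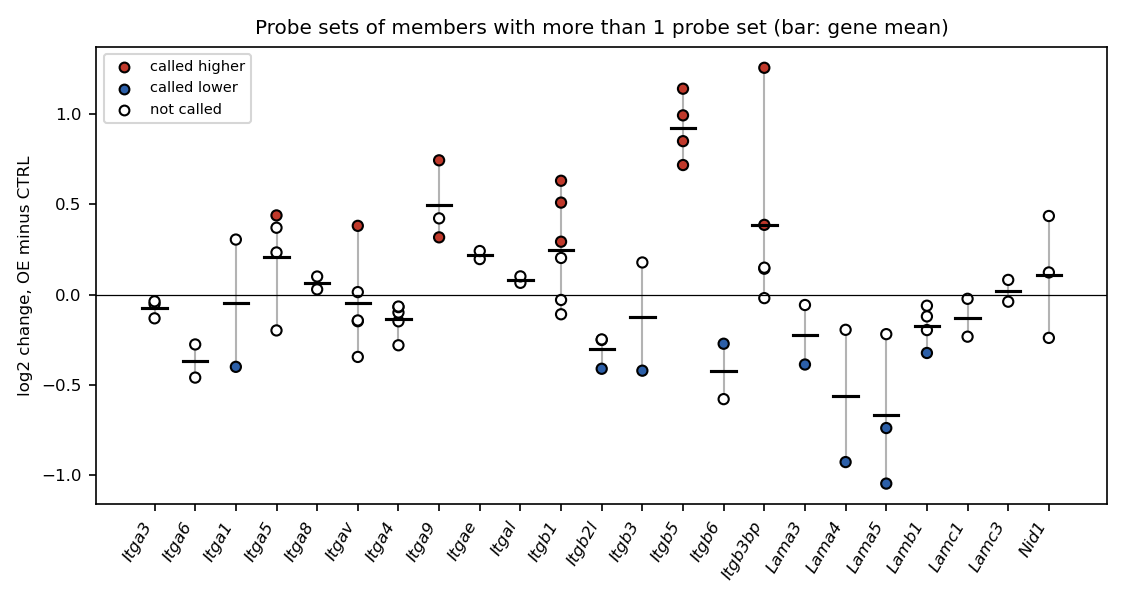
The log2 change, OE minus CTRL, of each probe set for the 23 members with more than 1, with a bar at the gene mean, red for called higher, blue for called lower and open for not called. The 4 probe sets of Itgb5 lie together at 0.72 to 1.14, whereas those of Itgb3bp spread from −0.02 to 1.26 and those of Itgb1 from −0.11 to 0.63.

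Inside the cell, integrins are coupled to actin by an adhesion complex of talin, kindlins, the kinase ILK with its partners, vinculin and others. Of 46 such genes measured of 51 listed, 15 were called higher and 7 lower, with a median log2 change of 0.14. After ribosomal centring 13 were higher and 18 lower, and by one-way analysis of variance 11 and 3. Among those called higher were Pdlim5, a Z-disc adaptor, at 1.32 (adjusted p = 0.000219), Tln1, the talin that binds beta tails, at 0.90 (adjusted p = 0.00126), and Actn1, an actin crosslinker, at 0.88 (adjusted p = 0.000263). Flnc, the muscle filamin, was higher by 0.84 (adjusted p = 0.0232), a call lost without CTRL 1, CTRL 2, OE 2 or OE 3 (adjusted p up to 0.0751). Vinculin and the kindlin Fermt2 were not called. Vcl, the vinculin gene, gave 0.32 (adjusted p = 0.168, and 0.0292 without CTRL 2), and Fermt2 gave 0.05 (adjusted p = 0.726).

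The complex of ILK, PINCH and parvin, singled out after its values were seen, had members called in both directions. Ilk stood at −0.18, −0.28 and −0.30 in CTRL and 0.18, 0.34 and 0.47 in OE, a rise of 0.58 on the log2 scale (adjusted p = 0.00335). Its partner Parva, or alpha-parvin, was higher by 0.68 (adjusted p = 0.000902), and Rsu1, which binds PINCH, was higher by 0.65 (adjusted p = 0.0061). Parvb, or beta-parvin, was lower at −0.37 (adjusted p = 0.0117), and the PINCH genes Lims1 and Lims2 were lower at −0.55 (adjusted p = 0.00154) and −0.55 (adjusted p = 0.0324). By one-way analysis of variance Rsu1 (adjusted p = 0.0548) and Lims2 (adjusted p = 0.138) were not called. The call of Lims2 was also lost without CTRL 1, CTRL 2, OE 2 or OE 3, with adjusted p up to 0.0988. These directions were the same after ribosomal centring.

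Outside the cell, 24 partners of laminin in the basement membrane were measured, of which 6 were called higher and 4 lower, 4 and 7 after ribosomal centring, and 2 and 3 by one-way analysis of variance. Col4a3 and Col4a5, minor chains of collagen IV, were higher by 1.201 (adjusted p = 0.00116) and 0.66 (adjusted p = 0.00117). Frem1, a part of the Fraser complex under epithelia, was higher by 0.70, a call lost without CTRL 2 or OE 3 (adjusted p up to 0.0775). Hspg2, the proteoglycan perlecan, was lower at −0.67 (adjusted p = 0.000812). The major collagen IV chains were not called, with Col4a1 at 0.16 (adjusted p = 0.377) and Col4a2 at −0.22 (adjusted p = 0.17, and 0.0447 without CTRL 1).

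Laminin is also held by dystroglycan with its sarcoglycan and dystrophin partners, and by syndecans. Of 19 such genes measured of 25 listed, 5 were called higher and 3 lower, 4 and 8 after ribosomal centring, and 3 and 2 by one-way analysis of variance. Dag1, the dystroglycan gene, was lower at −0.45 (adjusted p = 0.0113, and 0.0608 by one-way analysis of variance), and Sgcb, beta-sarcoglycan, was lower at −0.68 (adjusted p = 0.00052). Dmd, or dystrophin, gave −0.07 (adjusted p = 0.541). Sdc1, a syndecan, was higher by 0.50, with adjusted p of at most 0.0132 on leaving out any array. Sdc4, another syndecan, was higher by 0.61 and Sntb1, a syntrophin, by 1.43 (adjusted p = 0.019), but both calls were lost without CTRL 1 and without some of the other arrays, with adjusted p up to 0.0641 and 0.0644.

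Integrin ligands outside the basement membrane, such as collagens, fibronectin and matricellular proteins, had 10 of 26 measured genes called higher and 3 lower. After ribosomal centring 9 were higher and 9 lower, and by one-way analysis of variance 2 and 1. Postn, or periostin, was higher by 2.66, Ccn1 by 2.01 and Col3a1 by 1.43, each called on leaving out any array, though Ccn1 was not called by one-way analysis of variance (adjusted p = 0.0911). Ccn2 was higher by 1.45, a call lost without CTRL 1, OE 1, OE 2 or OE 3 (adjusted p up to 0.112). Vtn, or vitronectin, a ligand of the beta5 receptor, was lower at −0.41, a call lost without CTRL 1, CTRL 3, OE 2 or OE 3 (adjusted p up to 0.0888). Icam4, an adhesion molecule of red cells, was lower at −0.56 (adjusted p = 0.00378).

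The share called by limma was 47.8% in the adhesion complex and 50% among the ligands. It was 41.7% among basement membrane partners and 42.1% among the other laminin receptors, beside 26.7% of all genes. In the same order, one-way analysis of variance called 11, 2, 2 and 3 genes higher and 3, 1, 3 and 2 lower. Over all 18193 genes it called 1437 higher and 1125 lower, and by that test the ligands were called less often than all genes. These lists were not tested against other genes. By one-way analysis of variance the calls of Flnc, Frem1, Sntb1, Sdc4, Ccn2, Vtn and Cdh5 were lost as well, with adjusted p from 0.0692 to 0.19. Several fibroblast markers, Postn among them, are also ligands on these lists.

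**Figure D4:**
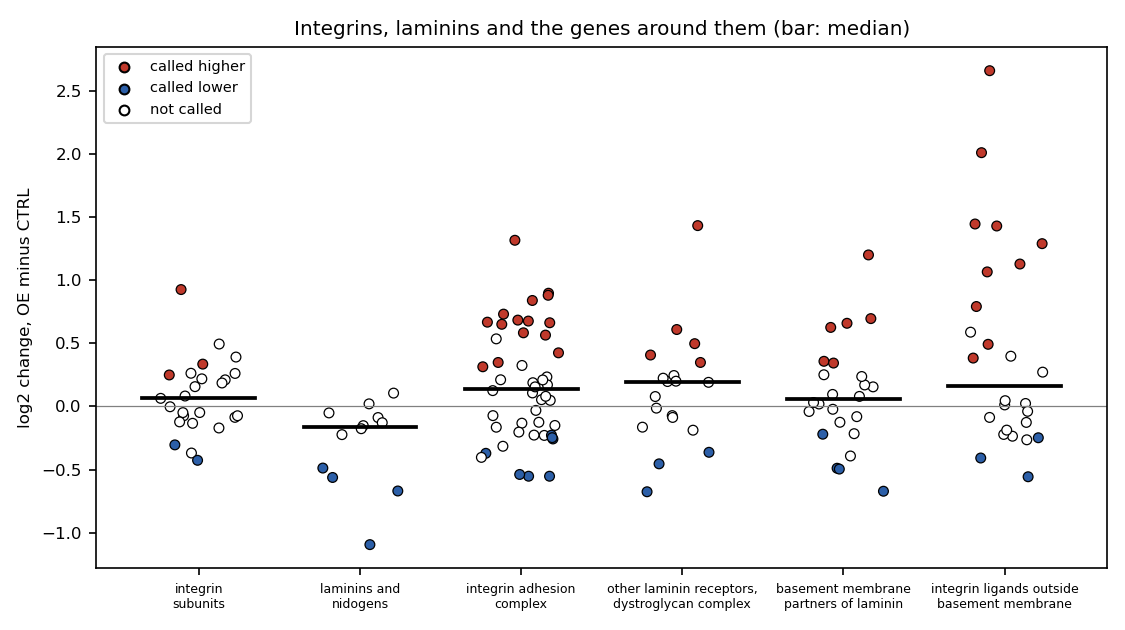
The log2 change, OE minus CTRL, of each measured gene of 6 lists, with a bar at the list median, red for called higher, blue for called lower and open for not called. Medians are 0.06 for integrin chains, −0.16 for laminins and nidogens, 0.14 for the adhesion complex, 0.19 for other laminin receptors, 0.06 for basement membrane partners and 0.16 for ligands.

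The remaining marker lists were smooth muscle and pericyte, Schwann and neural, and mesothelial genes. Of 12 smooth muscle and pericyte genes, 4 were called higher and 7 lower, or 33.3% and 58.3%, beside 14.9% and 11.8% of all genes. These counts were 3 and 6 by one-way analysis of variance and 3 and 8 after ribosomal centring. Of 5 Schwann and neural genes, 1 was called higher and 2 lower. Their counts were 0 and 2 by one-way analysis of variance and 0 and 3 after ribosomal centring. Of 6 mesothelial genes 0 were called, 0 at an unadjusted p under 0.05 and 0 by one-way analysis of variance. An exact permutation test of 3 against 3 arrays cannot give a p under 0.1. By one-way analysis of variance, which shares no variance across genes, 7 of the 12 members called by limma were called.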

How the data were processed

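Total RNA of 6 ventricle samples was hybridised to Affymetrix mouse genome arrays. In GeneSpring GX the authors summarised probe sets by RMA, normalised them by quantiles and set each to its median over all samples, and the deposited values were taken as log2, as RMA gives. The log base, the RMA version and a genome build are not given in the sources used here. Values ran from −4.29 to 3.54. They hold no level, so the methods' filter on raw expression could not be applied.

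Of 45101 probe sets, 34945 named 1 gene symbol in the platform annotation and were averaged into 18193 genes. A further 932 named several symbols, 9211 had no gene here, and these and 64 array controls were left out. Of the 41 members, 18 had 1 probe set, the most was 6, and all 41 gene IDs matched RefSeq.

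OE and CTRL, 3 arrays each, entered a linear model (lmFit, eBayes) of limma 3.58.1, run in R 4.3.3, two-sided, without covariates, with Benjamini-Hochberg adjustment over all genes and a threshold of 0.05. The script was tested on simulated data. SE is the moderated standard error, intervals are 95%, and the number of arrays limits the precision. One-way analysis of variance, which the methods name, and their fold limit of 1.2 were run as alternatives, as were array weights, other probe set summaries, other centring, leaving out each array, the replicate number as a block, and a fold limit of 1.5. An intensity trend in eBayes was not run.

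Members and gene lists were chosen with earlier results of these data known. Every member is named or counted, with array values for called members and for chains known around cardiomyocytes. From each pathway list up to 4 called genes with the largest change were named, with up to 2 that were not called or went against the list's more frequent direction, and from marker lists up to 2 genes. The genes of the ILK, PINCH and parvin complex were an exception, named beyond that limit after their values were seen. Lists were described by counts and medians. Promoter sequences are from RefSeq, build GRCm38.p6. Python 3.11.15, pandas 2.3.3 and matplotlib 3.10.9 were used.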

Additional observations from a re-analysis of the deposited data

How the results depend on the processing

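Limma called 6 members higher and 6 lower. These counts became 3 and 4 by one-way analysis of variance, 3 and 3 of 36 members without probe sets ending in _x_at, _s_at or _a_at, 3 and 20 with ribosomal centring, and 2 and 2 with a fold limit of 1.5. Counts moved by at most 1.5 times with array weights (6 and 6), the probe set of largest variance (7 and 7), centring on the array median (6 and 5) and a fold limit of 1.2 (5 and 6). Leaving out 1 array at a time gave 4 to 7 higher and 4 to 6 lower, and 8 to 10 of the 12 called members were still called. No called member changed sign under any alternative. Itgbl1, Itgb5, Itgb1bp2, Lama4, Lama5, Lamb3 and Nid2 kept their call under every alternative computed for them, fold limits aside, whereas Itgb3bp, Itgb2l, Itga7, Itgb1 and Itgb6 each lost it under at least 1. Their adjusted p by analysis of variance were 0.0509, 0.0692, 0.0973, 0.0704 and 0.162. Over all genes the 2709 higher and 2152 lower calls became 1437 and 1125 by analysis of variance, 1431 and 8367 with ribosomal centring and 927 and 479 with a fold limit of 1.5, and the lower calls became 1400 without CTRL 1, 1438 without CTRL 2, 1243 without OE 1, 1469 without OE 2 and 1402 without OE 3. The ribosomal protein genes themselves had a median log2 change of 0.20, so centring on them lowers every gene in OE relative to CTRL. The cause of the other shifts was not tested. The labels name no pairs, and the samples were treated as unpaired. Same-numbered deviations from the group mean correlated at 0.07, −0.12 and 0.03. CTRL 1 and OE 1 correlated best with each other, whereas CTRL 2 correlated best with OE 3, at 0.08. Such correlations cannot exclude a pairing, since each deviation is taken from a mean of only 3 arrays. With the replicate number as a block, 5 members were called higher and 4 lower, 8 of the 12 kept their call, and Itga9 gained one (adjusted p = 0.0109). A filter on dim probe sets and a check of signal over background were not run, since the values hold no level.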

Other observations

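Among members that were not called as genes, 7 had a probe set that was called on its own by limma over all 34945 probe sets. Itga9, the tenascin and VCAM-1 receptor chain, had 2 of 3 probe sets called higher, with log2 changes of 0.32 (adjusted p = 0.04) and 0.74 (adjusted p = 0.00359). The third gave 0.42 (adjusted p = 0.461), and its groups overlapped, with CTRL 2 at 0.62 and OE values of −0.10, 1.08 and 0.07. Itga5 had 1 of 4 called higher at 0.44 (adjusted p = 0.0277) beside another at −0.20. Itga1 had 1 of 2 called lower at −0.40 (adjusted p = 0.044) and the other at 0.30 (adjusted p = 0.179). For Lamb1, the 4 probe sets gave −0.06, −0.12, −0.20 and −0.32, and that at −0.32 was called lower (adjusted p = 0.0441). For Lama3, 1 of 2 was called lower at −0.39 (adjusted p = 0.0451) and the other gave −0.06. The probe sets of Itgav and Itgb3 that were called are described above. Which exons these probe sets cover was not analysed here.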
